A study of Arabidopsis thaliana with 4 samples.

Results

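ABI5, ABF1, ABF2, ABF3 and ABF4 are related basic leucine zipper (bZIP) transcription factors of Arabidopsis thaliana, and AFP1, AFP2, AFP3 and AFP4 encode the AFP proteins, which bind ABI5. These 9 genes, of 27444 nuclear protein-coding genes, were picked by name, and each was matched to a single entry of the gene table. AFP4 was found by synonym, since the table calls it TMAC2. Peaks of SMXL6 on chromatin within 5000 bp of each gene were then collected. The choice of the 9 genes was made with results of these data known, so the counts below are descriptions and carry no test.

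Abscisic acid (ABA) is the hormone of seed dormancy and drought response. When receptors of the PYR/PYL family bind it, they inhibit PP2C phosphatases. This frees SnRK2 kinases, which phosphorylate and activate ABI5 and the ABF factors. These factors then bind ABA response elements in target promoters. ABI5 acts mainly in seeds and young seedlings, where it can arrest growth after germination, while ABF2, ABF3 and ABF4 act mainly in vegetative tissue under drought and salt. AFP proteins bind ABI5, promote its loss and recruit TOPLESS corepressors, so they damp the ABA response. SMXL6 is a repressor of strigolactone signalling that is degraded when the hormone is perceived, and it also works with TOPLESS proteins.

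SMXL6 was mapped by chromatin immunoprecipitation and sequencing with a polyclonal anti-HA antibody in whole seedlings aged 2 weeks. Of the 4 libraries, 2 came from smxl6/7/8 triple mutants that carry SMXL6-HA driven by the SMXL6 promoter, and 2 came from smxl6/7/8 plants without the transgene as control. The control plants thus carry the same mutations as the transgenic ones, and the labels name no hormone treatment. Each replicate of the transgenic plants was compared by the authors with the control of the same number, which gave 1789 peaks in list 1 and 1442 in list 2. The score of each peak is the authors' own value, and its median was 92.0 in list 1 and 89.2 in list 2. Peaks that had 1 bp or more in common between the lists were called shared, which held for 54.9% of list 1 and 74.7% of list 2. In whole seedlings, SMXL6 on a site in few cells and weak occupancy in many cells cannot be told apart. Positions are on TAIR10, and "below" and "above" mean lower and higher chromosome coordinates, because strand was not used here. Which side of a gene holds its promoter is therefore not given.

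AFP1, AFP2 and AFP3 had a shared peak, AFP4 and ABI5 had a peak in list 2 alone, and ABF1, ABF2, ABF3 and ABF4 had no peak in either list. Within 5000 bp, list 1 peaks stood at 3 of the 9 genes, against 21.4% of all protein-coding genes. List 2 peaks stood at 5 of the 9, against 15.4%. Shared peaks stood at 3 of the 9, against 11.5%. A peak of either list stood within 5000 bp of 24.7% of all protein-coding genes, so having none, as at the ABF genes, was the common case. At each of the 3 genes with a shared peak, such a peak overlapped the gene itself. Of all protein-coding genes, 3158 had a shared peak within 5000 bp and 924 (3.37%) had one over the gene. The rule chose these genes with the peaks in view, so nothing is read from the gap between the counts and the background.

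**Figure D1:**
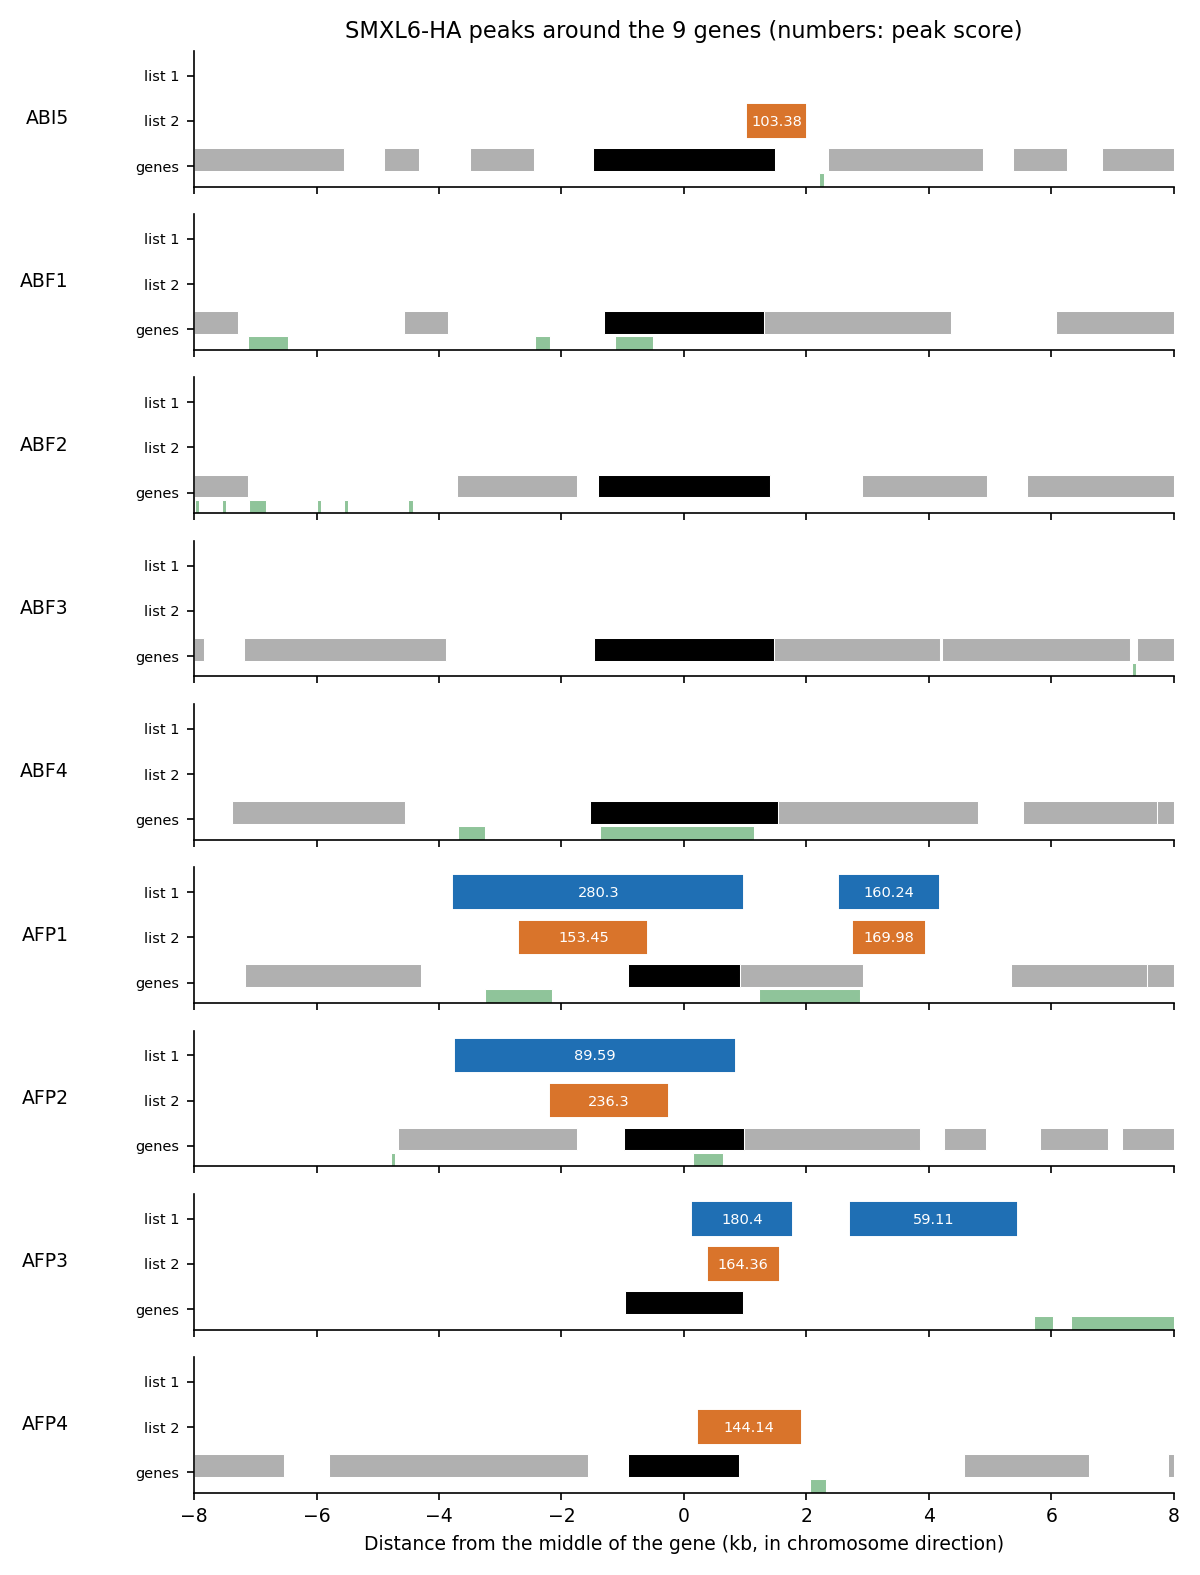
Peaks of list 1 (blue) and list 2 (orange), with their scores, around each of the 9 genes. The horizontal axis is the distance in kb from the middle of the gene (black), with other protein-coding genes in grey and genes of other types in green. Peaks lie on AFP1, AFP2 and AFP3 in both lists, on AFP4 and ABI5 in list 2 alone, and at none of the ABF genes.

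AFP1 carried the highest-scoring list 1 peak of the 9 genes. It spanned chromosome 1, 26036062 to 26040765, with a score of 280.3, rank 151 of 1789. The list 2 peak spanned 26037142 to 26039201, with a score of 153.45, rank 384 of 1442. The list 1 peak enclosed the list 2 peak and was 2.28 times as wide. In list 1 the peak took in 100% of AFP1 and ran 2843 bp below it. In list 2 it covered 16.4% of the gene, at the lower end, and ran 1763 bp below. Both midpoints thus fell outside AFP1, 491.5 bp and 733.5 bp below its lower end, which was the nearest end of any protein-coding gene. Both peaks also overlapped AT1G69252, a non-coding RNA gene below AFP1. The list 2 midpoint was nearer to AT1G69252 than to AFP1, and the list 1 midpoint was nearer to AFP1.

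A second shared peak lay above AFP1. Its list 1 interval was 26042369 to 26043959, 1649 bp from AFP1, and scored 160.24 (rank 406). Its list 2 interval was 26042596 to 26043733, 1876 bp from AFP1, and scored 169.98 (rank 331). RPK1, which encodes a receptor-like kinase involved in ABA responses, overlaps the upper end of AFP1 by 32 bp and lay under this peak in both lists. An end of RPK1 was 423 bp and 423.5 bp from the midpoints, so the peak was read as one at RPK1. AFP1 counted as a gene with a shared peak without it.

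At AFP2 the peaks differed in order between the lists. List 1 had a peak at chromosome 1, 4710703 to 4715240, with a score of 89.59, rank 927 of 1789 and just under the list median. List 2 had a peak at 4712243 to 4714144 with a score of 236.3, rank 210 of 1442, which was the highest list 2 score of the 9 genes. The list 1 peak, 4538 bp wide, covered 91.5% of AFP2 and ran 2730 bp below it across AT1G13730. The list 2 peak, 1902 bp wide, covered 36.1% of AFP2 at its lower end and also overlapped AT1G13730. The midpoint of the list 2 peak was 239.5 bp below AFP2, nearer to AFP2 than to any other gene. The list 1 midpoint was nearer to AT1G13730, 299.5 bp from its end against 461.5 bp from AFP2. When a peak counted for no gene but the closest one, AFP2 had no shared peak, and with scores of at least 100 it had none either.

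AFP3 had the pair of peaks with the closest scores and positions among those on the genes themselves. The list 1 peak spanned chromosome 3, 11383329 to 11384925, with a score of 180.4, rank 337. The list 2 peak spanned 11383582 to 11384708, with a score of 164.36, rank 347. Both lay over the upper end of AFP3, covering 42.3% and 29.2% of the gene. The midpoints were 18 bp and 0 bp from the upper end, so the peaks were centred on it. AFP3 also had the most isolated position, with 17424 bp below it and 10529 bp above it free of protein-coding genes, and no other gene lay under this peak. A further list 1 peak, 1758 bp above AFP3, had a score of 59.11, rank 1497, and no partner in list 2.

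AFP4 differed from the other AFP genes in having a peak in 1 list alone. The list 2 peak spanned chromosome 3, 386384 to 388039, with a score of 144.14, rank 415 of 1442. It covered 36.8% of AFP4 at the upper end, and no other gene lay under it. The nearest list 1 peak was 23555 bp away. Of the 415 list 2 peaks with a score of at least 144.14, 23 (5.54%) were unshared, against 25.3% of the whole list. These 415 take in all higher-scoring peaks, so they do not give the share among peaks close to this score. Like AFP1 beside RPK1, AFP4 has a gene of the same receptor kinase family, RPK2, as its neighbour, here 654 bp below. The AFP4 peak lay on the other side of the gene, and no peak stood between AFP4 and RPK2.

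ABI5, the factor after which the AFP proteins are named, had a list 2 peak at chromosome 2, 15207196 to 15208132, with a score of 103.38, rank 615 of 1442. It lay across the upper end of ABI5 with its midpoint 28 bp outside the gene. With 937 bp it was the narrowest peak at the 9 genes. No list 1 peak lay within 5000 bp, and the nearest was 19038 bp away. Of the 615 list 2 peaks with at least this score, 60 (9.76%) were unshared. Over all protein-coding genes, 3.28% had a list 2 peak and no list 1 peak within 5000 bp, as ABI5 and AFP4 did.

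**Figure D2:**
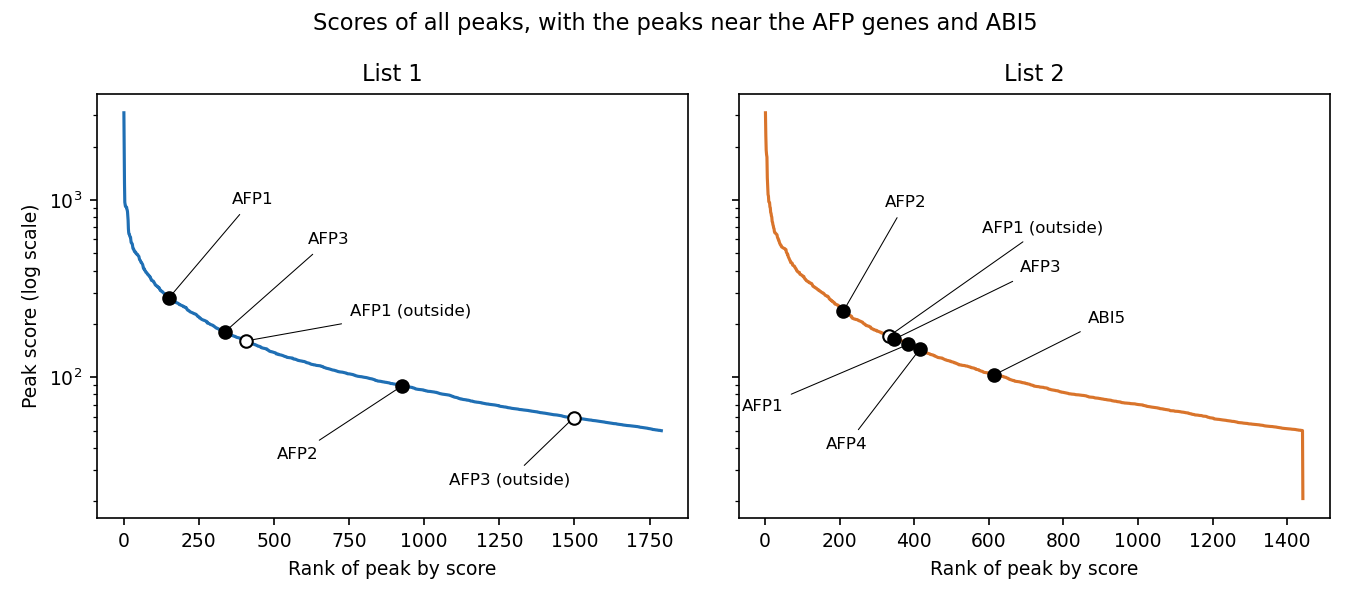
Scores (vertical axis, log scale) of all peaks of list 1 (blue) and list 2 (orange) by rank (horizontal axis), with peaks within 5000 bp of the 9 genes as circles. Filled circles overlap the named gene and open circles lie outside it. List 1 circles on genes run from rank 151 at AFP1 to 927 at AFP2, and list 2 circles on genes from rank 210 at AFP2 to 615 at ABI5.

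The order of the AFP genes was not the same in both lists. By list 1 score it was AFP1, AFP3 and AFP2, and by list 2 score it was AFP2, AFP3, AFP1 and AFP4. Only AFP3 held its place, and with 1 value per gene and list no order among the 4 was established. Among the 924 genes overlapped by a shared peak, the median of the best score was 125 in list 1 and 117 in list 2. AFP1 and AFP3 were above both medians. AFP2 was below the first and above the second. For AFP1, 15.8% of these genes had an equal or higher list 1 score and 37.8% an equal or higher list 2 score. For AFP2 these shares were 68.6% and 21.2%, and for AFP3 31.6% and 34.0%.

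ABF1, ABF2, ABF3 and ABF4, the vegetative ABA response factors, had no peak nearby. The closest peak to any of them was a list 1 peak 12891 bp below ABF4, with a score of 83.79, and the nearest gene end to it was that of CYP707A4, an ABA hydroxylase gene. The nearest list 2 peak to ABF4 was 29382 bp away. ABF1 had its nearest peaks at 28951 bp in list 1 and 29767 bp in list 2. For ABF3 these distances were 38150 bp and 38510 bp. ABF2 lay farthest from any peak, at 1014132 bp in list 1 and 119920 bp in list 2. For ABF1, ABF3 and ABF4, such distances were ordinary. The median gene lay 21199 bp from a list 1 peak and 28961.5 bp from a list 2 peak. For ABF2 they were not, since 1.61% of protein-coding genes lay as far from a list 1 peak and 11.9% as far from a list 2 peak. At a limit of 5000 bp, the outermost peak inside was 1876 bp from its gene, and the nearest one outside, over all 9 genes and both lists, was 12891 bp away. Depth is unknown, so occupancy of the ABF genes below what these libraries could detect is possible.

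**Figure D3:**
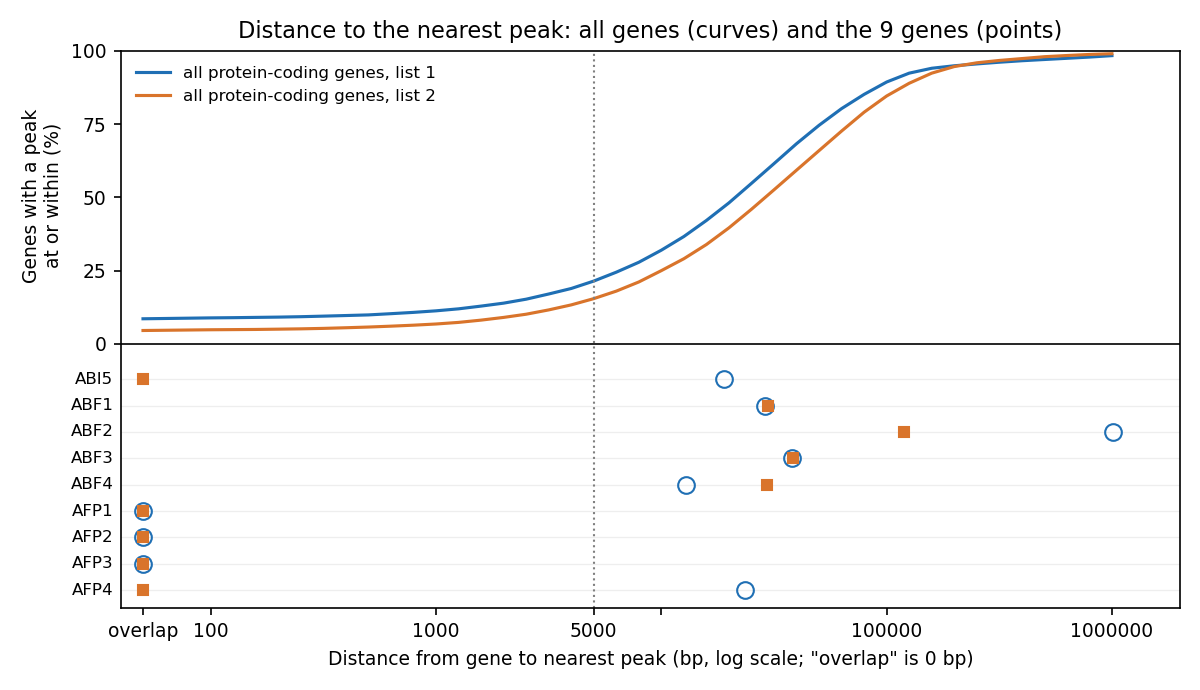
Distance in bp from a gene to the nearest peak (horizontal axis, log scale, with overlap at the left). The curves give the percentage of all protein-coding genes with a list 1 (blue) or list 2 (orange) peak at or within that distance, and the rows below show each of the 9 genes (circles for list 1, squares for list 2). The 5 genes with a peak are overlapped by it, and the other values lie beyond the dotted line at 5000 bp.

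The genes also differed in length and surroundings. The AFP genes were 1815 bp to 1975 bp long, and ABI5 and the ABF genes 2626 bp to 3082 bp. ABF1, ABF3, ABF4, AFP1 and AFP2 overlapped a protein-coding gene on their upper side. On their other side, the stretch free of protein-coding genes was 2548 bp at ABF1, 2417 bp at ABF3 and 3012 bp at ABF4. At AFP1 it was 3389 bp and at AFP2 760 bp. Genes of other types were not counted, and such genes lie within the stretches at ABF1, ABF4 and AFP1. By the same measure, the median of the longer flank over all protein-coding genes was 1428.5 bp. The part of length and neighbours in the result was not tested. Of the 5 genes with a list 2 peak over 1 end, 3 (AFP1, AFP2 and AFP4) had it at the end with the longer flank. Over all protein-coding genes of that kind the share was 66.8%, so the side of these peaks was near the background.

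Every list 2 peak with a list 1 partner at these genes was enclosed by it. The list 1 peaks were 2.28 and 2.39 times as wide at AFP1 and AFP2, and 1.42 times at AFP3. The wide pairs at AFP1 and AFP2 thus overlapped by 43.8% and 41.9% of the list 1 peak, and the narrow pair at AFP3 by 70.6%. When 50% of both peaks had to overlap, AFP2 was no longer a gene with a shared peak, and AFP1 remained only through the peak at RPK1.

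Other genes of the ABA pathway, with TOPLESS corepressor genes and related bZIP genes beside them, were described by 7 lists from textbook knowledge. Of their 66 names, 65 were matched and 23 had a shared peak within 5000 bp (35.4%, against 11.5% of all protein-coding genes). A shared peak overlapped 14 of them (21.5%, against 3.37%). TOPLESS corepressor genes, which are not particular to the ABA pathway, gave 4 of the 23 and 4 of the 14. The lists were written with earlier results of these data known, so these shares are given as counts and not as a test.

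Upstream of ABI5 and the ABF factors, 5 of 14 receptor genes had a shared peak within 5000 bp, against 11.5% of all protein-coding genes. PYL9 had the best mean rank over both lists, with scores of 444.68 and 653.3 at 594 bp and 749 bp from the gene, and PYL8 followed with 200.73 and 56.77. Of the PP2C phosphatase genes, which restrain the kinases, 5 of 9 had a shared peak. ABI1 (125.98 and 134.6, at 726 bp and 759 bp from the gene) and PP2CA (95.64 and 108.93) had the best mean ranks. Of the SnRK2 kinase genes, 1 of 3 had a shared peak, SNRK2.3, with scores of 123 and 90.51. The scores at AFP1 and AFP3 were above those at ABI1, PP2CA and SNRK2.3 in both lists, and below those at PYL9. AFP2 was below ABI1, PP2CA and SNRK2.3 in list 1 (89.59) and above them in list 2 (236.3). PYL8 was between AFP1 and AFP3 in list 1 and below both in list 2.

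Like the ABF genes, other bZIP genes of the same group lacked shared peaks. The count was 0 of 6 for AREB3, EEL, BZIP67, GBF4, FD and FDP, and BZIP67 had a peak in list 1 alone. Together with ABI5 and the ABF genes this makes a shared peak at 0 of 11 group A bZIP genes, against 11.5% of all protein-coding genes. With so few genes, a count of 0 is close to that background and is not read as a result about the group. ABI3 and ABI4, the seed regulators that work with ABI5, had no peak in either list. Nor had KEG, a ubiquitin ligase gene for ABI5 turnover, or NINJA, which encodes a TOPLESS adaptor related to the AFP proteins. These genes were named after their values were seen. Since 24.7% of all protein-coding genes had a peak of either list within 5000 bp, such an absence was common.

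Among the 14 genes for partners, regulators and turnover of ABI5, which include those 4, 5 had a shared peak within 5000 bp. Over all protein-coding genes the share was 11.5%. BIN2, a kinase gene (165.22 and 163.76), came before ABD1, a substrate adaptor gene for ABI5 turnover (129.45 and 124.34), by mean rank. Mean rank over both lists was also the order used to choose every other gene of these lists that is given with scores. The ABD1 peaks lay 4209 bp and 4475 bp from the gene, near the limit. Of the 14 known ABA-induced genes, 3 had a shared peak within 5000 bp. RD26, which encodes a NAC factor, had scores of 361.72 and 350.73, and the cold- and ABA-induced gene KIN1 had 177.27 and 290.39 at 3289 bp and 3485 bp. Of the TOPLESS corepressor genes, whose products AFP proteins recruit, 4 of 5 had a shared peak over the gene. A shared peak overlapped 3.37% of all protein-coding genes. TPR1 had scores of 233.77 and 344.4 and TPL 206.58 and 264.99. In list 2 both were above every AFP gene, and in list 1 both were between AFP1 and AFP3.

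**Figure D4:**
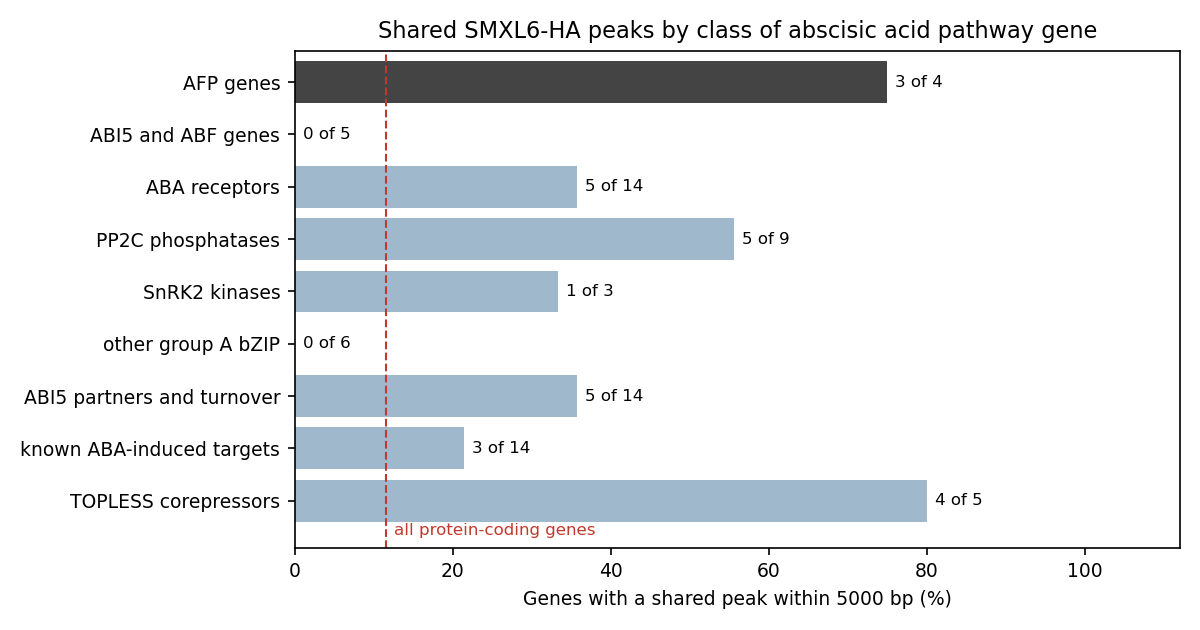
Share of genes with a shared peak within 5000 bp (horizontal axis, %), with counts beside the bars. Dark bars are the AFP genes and the ABI5 and ABF genes. Light bars are the 7 lists of other genes in or around the ABA pathway. The dashed line marks the 11.5% of all protein-coding genes. The AFP genes stand at 3 of 4, ABI5 and the ABF genes at 0 of 5 and other group A bZIP genes at 0 of 6.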

How the data were processed

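ChIP-seq libraries of smxl6/7/8 pSMXL6:SMXL6-HA and smxl6/7/8 seedlings (2 each) were processed by the authors. BWA 0.7.10-r789, SAMtools and MACS 1.4.2 with TAIR10 are named, per the submitters' processing notes. Settings, depth and duplicate handling were not given in the sources used here. Peaks were called per replicate pair, per the labels. The deposited score was taken as the peak caller's log-transformed p-value, because 1 peak alone scored under 50, the limit the caller sets by default on that scale. The labels do not say whether replicates came from separate cultures.

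Gene ends and names came from a RefSeq table of TAIR10.1 without strand or sequence. The planned upstream side and motifs were therefore not analysed here. Midpoints inside genes made up 39.8% of list 2, against 64.9% and 63.1% when moved by 10000 bp down or up. In list 1 these shares were 46.4%, against 61.7% and 63.0%. The builds were therefore taken to match, and smaller offsets were not tested. Distances, ranks and overlaps were computed in Python 3.11.15. Distances, sides and overlaps, but not ranks, were tested on simulated intervals. Of 66 pathway names, 51 matched by symbol, 8 by synonym and 6 by locus code, the last chosen after the table was opened.

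The members and lists were chosen with earlier results of these data known. All 9 members are named, with the 2 pathway genes per list of best mean rank and the genes beside a member's peak. Group A bZIP genes and ABI3, ABI4, KEG and NINJA were named after their values were seen.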

Additional observations from a re-analysis of the deposited data

How the results depend on the processing

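The count of 3 of 9 genes with a shared peak (AFP1, AFP2 and AFP3) was the same with windows of 1000 bp, 2000 bp and 10000 bp, with list 1 peaks cut down to the list 2 median width, and with overlap of the gene itself, a setting chosen after seeing the data. The share over all protein-coding genes was not: it was 11.5% at 5000 bp, 5.03%, 6.74% and 19.2% with those windows, 10.4% with narrower list 1 peaks and 3.37% with overlap, so an equal count stands against a different background in each. The count was 2 (AFP1 and AFP3) with scores of at least 100 and with reciprocal overlap of 50%, against 5.17% and 5.80% of all genes. With reciprocal overlap, AFP1 was counted only through the peak at RPK1. The count was also 2 (AFP1 and AFP3) with the nearest end of a protein-coding gene, against 3.0%. Leaving out 1 replicate gave 3 to 5 genes, since list 2 alone adds AFP4 and ABI5, against 15.4% of all genes in list 2 and 21.4% in list 1. Pathway genes with a shared peak numbered 23 of 65. They were 10 with scores of at least 100, 15 with the nearest gene end and 14 with overlap of the gene, and 16 to 30 under the other settings. Without 1 replicate they were 23 to 30. The ABF genes had no shared peak under any setting run. No paired analysis was possible because each peak list already sets 1 replicate against its control, and no result comes from a test. Unknown depth limits what the absence of a peak shows.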
